A study of Mus musculus with 8 samples.

Results

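The genes described here are 44 members of the cell's protein-folding, amino acid and heat stress responses, measured in the aorta of newborn mice that lack Lox. They were named by gene symbol, with earlier results of these data known, so they are not a set blind to the values. Each gene was read on its brightest probe set. Of the 44 members, 42 had a probe set of their own, out of 22180 genes on the array that did, and 41 were bright enough to be tested, out of 16635 genes. Slc7a11 was too dim, Pdia4 had only a probe set that it shares with a microRNA gene, and Pycr1 was not analysed here.

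RNA was measured on Affymetrix mouse gene arrays in the aorta of lysyl oxidase (LOX) knockout pups (KO) and of wild-type control pups (WT). Lysyl oxidase crosslinks elastin and collagen fibres. All pups were of an albino C57BL/6J background and were taken on the day of birth (p0, day 0). The 4 groups were the KO ascending, WT ascending, KO descending and WT descending aorta. The ascending segment ran from the aortic valve to the ductus arteriosus, and the descending segment from the vena cava to the diaphragm. Every array held RNA pooled from 8 pups, and each group had 2 arrays, so the tests measure the spread between pools and not between pups. The labels name neither the knockout allele nor a promoter or Cre line, and nothing in them describes a tissue-specific deletion.

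Proteins that enter the endoplasmic reticulum (ER) are folded there by chaperones such as BiP, the product of Hspa5, by lectin chaperones and by enzymes that form disulphide bonds. When unfolded protein builds up, the sensors IRE1, ATF6 and PERK start the unfolded protein response, in which XBP1 and ATF6 raise chaperone genes and PERK raises translation of ATF4. ATF4 also answers amino acid shortage and induces enzymes and transporters of amino acids, while heat shock factor 1 raises chaperones of the cytosol. Smooth muscle cells and fibroblasts of the newborn aorta secrete much collagen and elastin, whose chains fold in the ER.

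The genotype and the tissue were checked first. Lox read 8.87 and 8.74 on the KO ascending arrays, against 11.47 and 11.60 on the WT ascending arrays. It read 8.56 and 8.51 in KO descending aorta, against 11.41 and 11.24 in WT descending aorta. All values here are log2 signals unless a fold is named. Lox fell by 2.73 (limma, adjusted p = 5.346e-05) in the ascending aorta and fell by 2.80 (adjusted p = 4.426e-05) in the descending aorta. The smooth muscle markers Acta2 (12.42 to 12.63), Tagln and Myh11 were bright on every array. Of the 8 smooth muscle markers tested, 0 passed an adjusted p under 0.05 between genotypes in any comparison, which does not show that they were unchanged. In KO ascending aorta Myocd was lower by 0.43 (limma adjusted p = 0.0727) and Des higher by 0.66 (adjusted p = 0.231), both without overlap. Pearson correlations between the arrays of 1 group, across genes, which are not independent replicates, were 0.988 to 0.992.

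Stress genes were shifted upward in the KO aorta. With the KO against WT difference averaged over both segments, 14 of the 41 members tested rose (34.1%) and 1 fell, and 26 did not reach an adjusted p under 0.05, while 6.21% of all genes tested rose and 5.22% fell. The median difference was 0.21 over the members and 0.0036 over all genes. The genes that rose were 7 ER chaperones and folding factors (Hspa5, Hyou1, Calr, Pdia6, Sdf2l1, Creld2 and Manf), the transcription factor Xbp1, 3 enzymes of amino acid synthesis (Psat1, Shmt2 and Aldh18a1), and 3 heat shock proteins or their partners (Hsph1, Hspa1a and Bag3). The gene that fell was Vldlr, a lipoprotein receptor. Rises ran between 1.22-fold and 1.72-fold, and for 13 of the 14 genes all 4 KO arrays lay above all 4 WT arrays. The exception was Hspa1a. These genes were called on the same arrays, so this separation adds no further support, and its share over all genes was not counted. In a pool of tissue, more RNA per cell and more cells of a type cannot be told apart.

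**Figure D1:**
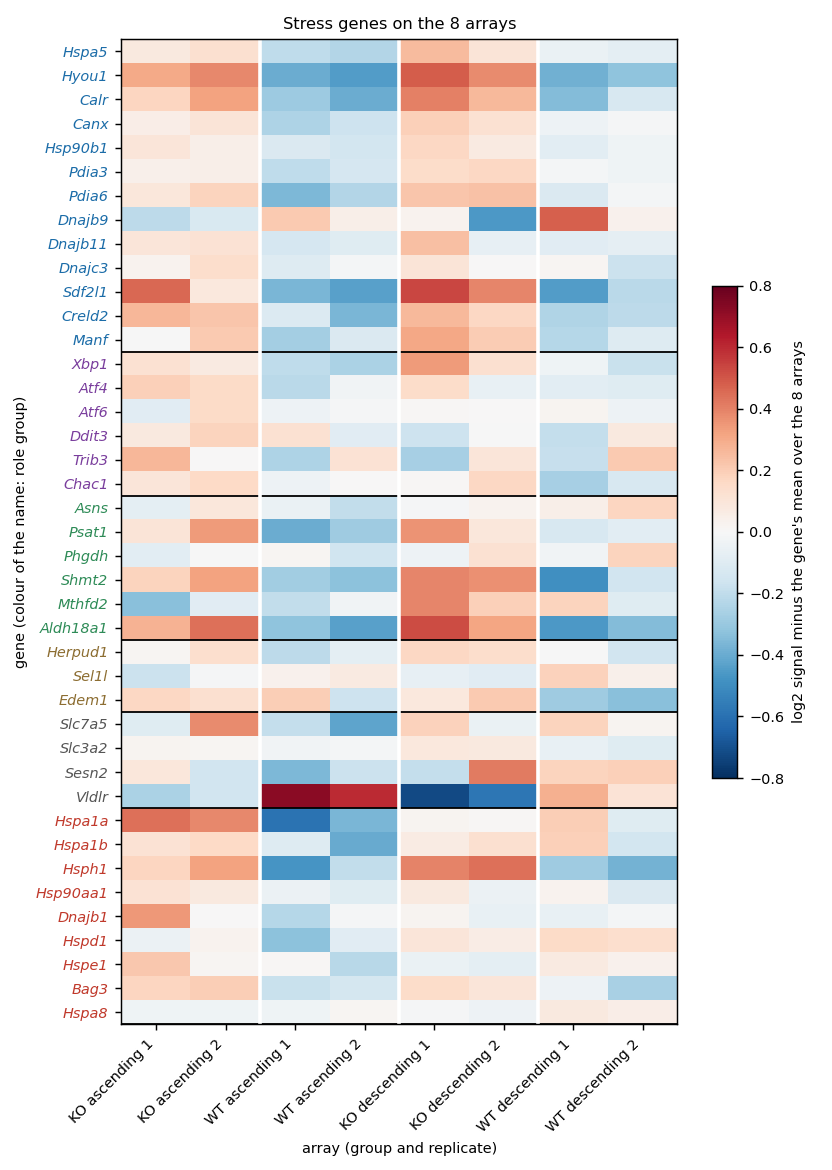
Log2 signal of the 41 tested stress genes (rows, grouped by role and coloured by role group) on the 8 arrays (columns), as the distance from each gene's own mean. Hyou1, Calr, Sdf2l1, Shmt2, Aldh18a1 and Hsph1 are above their means on all 4 KO arrays and below them on all 4 WT arrays, and Vldlr runs the other way.

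The averaged calls were not equally secure. Hyou1, Calr, Sdf2l1, Creld2, Shmt2, Aldh18a1, Vldlr and Hsph1, 8 of the 15, passed under each of the 15 alternative settings run for this comparison. The other 7 calls were lost in some of these settings, Hspa5 in 11, Bag3 in 9, Manf and Xbp1 in 7 each, Hspa1a in 6, and Pdia6 and Psat1 in 5 each. With a single array left out, 8 to 11 members passed. The count was 8 without KO ascending replicate 2 or KO descending replicate 1, and 9 without WT ascending replicate 1 or WT descending replicate 2.

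Within each segment the same test had fewer arrays behind it and fewer members passed. In the ascending aorta 5 members rose (Hyou1, Calr, Aldh18a1, Hspa1a and Hsph1) and Vldlr fell, which is 12.2% and 2.44% of the 41, against 1.54% and 1.19% of all genes. In the descending aorta 5 rose (Hyou1, Sdf2l1, Shmt2, Aldh18a1 and Hsph1) and Vldlr fell, against 1.46% and 0.824% of all genes. The median difference of the members was 0.22 in the ascending and 0.17 in the descending aorta, and that of all genes was 0.01 and -0.01. Of the 6 calls in each segment, 0 passed in all 16 alternative settings. Some of these settings leave 1 array in a compared group, which then has no spread of its own. The differences moved less than the calls. Over the settings Hyou1 ran from 0.73 to 0.81 in the ascending and from 0.73 to 0.83 in the descending aorta. Vldlr ran from -0.93 to -0.80 and from -0.93 to -0.76. KO arrays lay above WT arrays without overlap in both segments for 21 members (51.2%) and below for 3 (7.32%), beside 12.8% and 12.4% of all genes.

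The ER chaperones and folding factors, the largest role group, held the most genes that rose. Of 13 tested, 7 rose (53.8%) and 0 fell in the averaged comparison, with a median of 0.28. The share that rose was 50% for the amino acid and one-carbon enzymes, 33.3% for the heat shock proteins and 6.21% for all genes. The 250 bases before the transcription start were searched in RefSeq promoter windows (GRCm38.p6), which held 38 of the 44 members. The search, on both strands, was for the ER stress response element, CCAAT and CCACG with 9 bases of any kind between them, which ATF6 is known to bind together with NF-Y. It was found in 7 members (18.4% of those with a window) and in 0.13% of all 27025 genes with a window. The members were chosen as genes of this response, so the excess is not a separate result. The matches, with 20 bases on each side, are shown for all 7 genes, each of them an ER chaperone or folding factor. Each reads 5′ to 3′ along the gene's own strand, capitals mark the element, and an element on the opposite strand begins with CGTGG.
Hspa5, chr2:34772005-34772063, plus strand: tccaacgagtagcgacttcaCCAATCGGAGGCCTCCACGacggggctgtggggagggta
Calr, chr8:84847055-84847113, minus strand: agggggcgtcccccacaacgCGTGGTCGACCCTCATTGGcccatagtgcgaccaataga
Hsp90b1, chr10:86705618-86705676, minus strand: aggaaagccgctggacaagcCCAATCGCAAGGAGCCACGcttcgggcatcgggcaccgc
Canx, chr11:50325780-50325838, minus strand: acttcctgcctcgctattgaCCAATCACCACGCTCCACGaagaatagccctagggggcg
Pdia6, chr12:17266471-17266529, plus strand: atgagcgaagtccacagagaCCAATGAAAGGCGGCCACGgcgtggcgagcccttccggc
Dnajc3, chr14:118937807-118937865, plus strand: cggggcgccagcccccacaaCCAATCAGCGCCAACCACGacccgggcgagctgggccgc
Creld2, chr15:88819500-88819558, plus strand: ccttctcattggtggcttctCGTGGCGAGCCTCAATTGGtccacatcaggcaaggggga
Of these 7 genes, 4 rose in the averaged comparison (Hspa5, Calr, Pdia6 and Creld2) and 3 did not pass (Hsp90b1, Canx and Dnajc3). This is near the 53.8% of all ER chaperones and folding factors that rose, beside 6.21% of all genes. Sdf2l1 rose without a match, and Hyou1 and Manf rose but had no window. A link between the element and the rise was not tested. The matches lay between 47 and 212 bases before the start, and Hsp90b1 held a second one on the other strand. A match in a window is a description of the sequence and not evidence of binding. A core of the unfolded protein response element bound by XBP1 and ATF6, TGACGTGG, was in the window of 0 members and of 0.603% of all genes.

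Hyou1, an ER chaperone that helps BiP exchange its nucleotide, had the smallest p of the folding factors. It read 7.22 and 7.31 in KO ascending aorta, against 6.52 and 6.47 in WT ascending aorta. In the descending aorta it read 7.40 and 7.30 in KO pools, against 6.54 and 6.6 in WT pools. The KO arrays were well above the WT arrays in both segments, and the averaged rise was 0.77 (SE 0.07, limma adjusted p = 0.00116), or 1.71-fold. The rise was 0.77 (adjusted p = 0.0115) in the ascending and 0.78 (adjusted p = 0.0125) in the descending aorta.

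Sdf2l1, a BiP cofactor that keeps clients from aggregating, read 6.76 and 6.38 on KO ascending arrays, against 5.93 and 5.86 on WT ascending arrays. It read 6.83 and 6.69 on KO descending arrays, against 5.85 and 6.08 on WT descending arrays. No KO array reached down to a WT array, although the KO ascending pools differed from each other. It rose 1.66-fold on average (log2 0.73, SE 0.10, limma adjusted p = 0.00558). In the descending aorta alone it passed (0.79, adjusted p = 0.0384), and in the ascending aorta it did not (0.67, adjusted p = 0.0517).

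Calr encodes calreticulin, a soluble lectin chaperone that binds calcium. It read 10.75 and 10.89 in KO ascending aorta, against 10.28 and 10.18 in WT ascending aorta, and 10.98 and 10.83 in KO descending aorta, against 10.22 and 10.45 in WT descending aorta. All KO arrays were above all WT arrays. The averaged rise was 1.5-fold (log2 0.58, SE 0.09, limma adjusted p = 0.00633). Canx, its membrane-bound relative calnexin, had a smaller averaged difference of 0.23 and did not pass (adjusted p = 0.0635). Canx read 10.78 and 10.83 in KO ascending aorta, against 10.48 and 10.56 in WT ascending aorta. It read 10.92 and 10.85 in KO descending aorta, against 10.69 and 10.72 in WT descending aorta, so its KO arrays too were above its WT arrays.

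Hspa5, whose product BiP is the main ER chaperone and a standard marker of ER stress, rose by a modest amount. It read 8.97 and 9.02 on KO ascending arrays, against 8.68 and 8.65 on WT ascending arrays. It read 9.14 and 8.99 on KO descending arrays, against 8.84 and 8.81 on WT descending arrays. The groups did not overlap, and the averaged rise was 1.22-fold (log2 0.28, SE 0.07, limma adjusted p = 0.0383), the smallest among the 14. This call was lost in 11 of the 15 alternatives: no filter on dim genes, arrays shifted to 1 median, the replicate block and each of the 8 settings with an array left out. Neither segment passed by itself, with adjusted p of 0.127 in the ascending and 0.24 in the descending aorta.

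Creld2, Manf and Pdia6 rose in the averaged comparison and in neither segment alone. Creld2, an ER-resident factor with disulphide isomerase activity, read 7.17 and 7.13 in KO ascending aorta, against 6.80 and 6.54 in WT ascending aorta. It read 7.16 and 7.07 in KO descending aorta, against 6.66 and 6.69 in WT descending aorta. The 4 KO arrays of Creld2 fell close together and above all WT arrays, for a 1.37-fold rise (log2 0.46, SE 0.08, limma adjusted p = 0.0116). Manf, a secreted factor held in the ER by BiP, read 6.94 and 7.15 in KO ascending aorta, against 6.67 and 6.83 in WT ascending aorta. It read 7.25 and 7.15 in KO descending aorta, against 6.72 and 6.84 in WT descending aorta. Its lowest KO array stood only a little above its highest WT array, and the rise was 0.36 (SE 0.08, limma adjusted p = 0.0297). Pdia6, a disulphide isomerase, read 9.45 and 9.54 in KO ascending aorta, against 9.0 and 9.13 in WT ascending aorta. It read 9.58 and 9.59 in KO descending aorta, against 9.25 and 9.34 in WT descending aorta. Pdia6 had no overlap either, with a rise of 0.36 (SE 0.07, limma adjusted p = 0.0182).

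The remaining folding factors did not pass. Pdia3, the isomerase that works with calnexin and calreticulin, read 10.96 and 10.97 in KO ascending aorta, against 10.71 and 10.78 in WT ascending aorta. It read 11.06 and 11.08 in KO descending aorta, against 10.90 and 10.88 in WT descending aorta, with an averaged difference of 0.20 (limma adjusted p = 0.0951). Its KO arrays were all above its WT arrays of the same segment. Hsp90b1 (endoplasmin), Dnajb11 and Dnajc3 (co-chaperones of BiP) differed by 0.19, 0.19 and 0.14. Dnajb9, a BiP co-chaperone known as a target of XBP1, had the opposite sign. It read 8.25 and 8.33 in KO ascending aorta, against 8.66 and 8.51 in WT ascending aorta. It read 8.48 and 8.0 in KO descending aorta, against 8.94 and 8.49 in WT descending aorta, and the averaged difference of -0.38 (SE 0.13) did not pass (adjusted p = 0.105). KO arrays were below WT arrays in both segments, by the smallest margin in the descending aorta, where pools of a genotype were far apart.

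**Figure D2:**
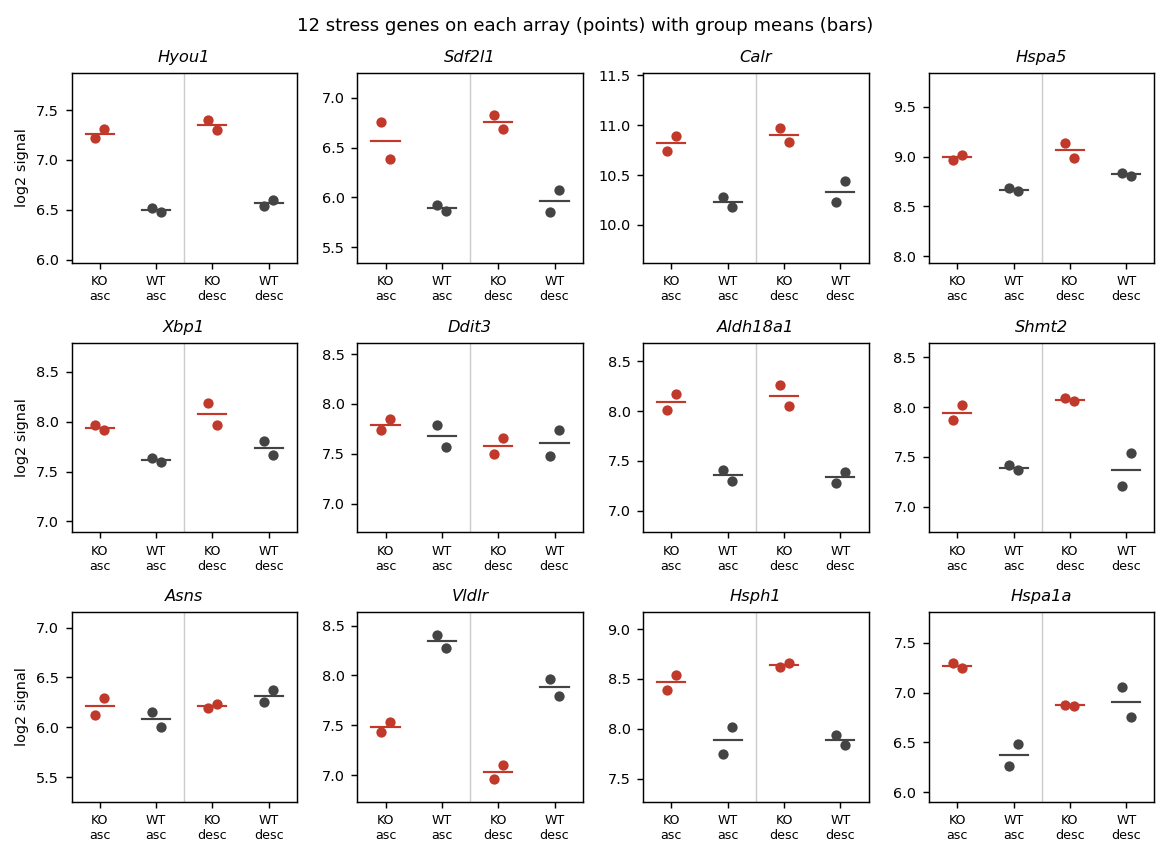
Log2 signal of 12 stress genes on each array (points), with group means (short bars), for KO and WT in the ascending (asc) and descending (desc) aorta; each panel spans the same log2 range around its gene. Hyou1, Sdf2l1, Calr, Hspa5, Xbp1, Aldh18a1, Shmt2 and Hsph1 are higher in KO in both segments, Vldlr is lower, and Ddit3 and Asns lie close together across genotypes. Hspa1a reads 7.30 and 7.24 in KO ascending aorta, against 6.26 and 6.49 in WT ascending aorta, and its descending arrays overlap.

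Among the 6 transcription factors and late effectors of the response, 1 rose and 0 fell in the averaged comparison, beside 6.21% and 5.22% of all genes. Xbp1, whose spliced transcript encodes an activator of ER chaperone and degradation genes, read 7.97 and 7.92 in KO ascending aorta, against 7.64 and 7.59 in WT ascending aorta. It read 8.18 and 7.97 in KO descending aorta, against 7.81 and 7.67 in WT descending aorta. Its KO arrays lay above its WT arrays, and it rose 1.26-fold on average (log2 0.33, SE 0.08, limma adjusted p = 0.0322). The probe set gives total Xbp1 RNA and does not separate the spliced form. Atf6 encodes the ER membrane sensor that is cut to release an activator. Atf6 read 8.52 and 8.76 in KO ascending aorta, against 8.57 and 8.60 in WT ascending aorta, and 8.62 and 8.61 in KO descending aorta, against 8.63 and 8.57 in WT descending aorta. The groups of Atf6 overlapped, with an averaged difference of 0.04 and a 95% interval of -0.14 to 0.22.

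Atf4, which is controlled mainly at translation, did not pass. It read 10.55 and 10.51 in KO ascending aorta, against 10.14 and 10.33 in WT ascending aorta. It read 10.50 and 10.30 in KO descending aorta, against 10.27 and 10.26 in WT descending aorta. KO arrays were higher without overlap in each segment, narrowly so in the descending aorta, with an averaged difference of 0.21 (95% interval 0.03 to 0.40, limma adjusted p = 0.133). None of the late effectors Ddit3, Trib3 and Chac1 passed. Ddit3 encodes CHOP, a factor of the terminal, death-promoting stage, and read 7.74 and 7.85 in KO ascending aorta, against 7.79 and 7.57 in WT ascending aorta. It read 7.50 and 7.66 in KO descending aorta, against 7.47 and 7.74 in WT descending aorta. Its groups overlapped, and the averaged difference was 0.04 (95% interval -0.17 to 0.26, limma adjusted p = 0.824), so a rise as large as that of Hyou1 lay outside the interval.

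Trib3, a pseudokinase induced by CHOP and ATF4, read 4.96 and 4.69 in KO ascending aorta, against 4.45 and 4.81 in WT ascending aorta. It read 4.43 and 4.79 in KO descending aorta, against 4.51 and 4.90 in WT descending aorta. The groups overlapped in both segments, the averaged difference was 0.05 with a 95% interval of -0.26 to 0.36, and the signal was dim. Chac1, a glutathione-degrading enzyme and ATF4 target, was also dim. It read 4.98 and 5.04 in KO ascending aorta, against 4.85 and 4.89 in WT ascending aorta, and 4.90 and 5.05 in KO descending aorta, against 4.62 and 4.76 in WT descending aorta. Its KO arrays were higher than its WT arrays, and the averaged difference of 0.22 did not pass (limma adjusted p = 0.106).

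Of the 6 amino acid and one-carbon enzymes tested, 3 rose and 0 fell in the averaged comparison, beside 6.21% and 5.22% of all genes. The other 3 had differences close to 0. The core of the amino acid response element bound by ATF4, TGATGNAA, was searched on both strands. It was in the promoter windows of 6 members (15.8%) and of 3.91% of all genes. The 6 were Asns, Chac1, Herpud1, Pycr1, Slc7a11 and Vldlr. The members include genes chosen as ATF4 targets, so this excess is not a separate result. Matches are shown for Vldlr, which fell, and for the standard ATF4 targets Asns and Chac1, which did not pass, with capitals marking the core or, in Chac1 and Vldlr, its reverse complement.
Asns, chr6:7693210-7693252, minus strand: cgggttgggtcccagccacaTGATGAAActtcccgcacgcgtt
Chac1, chr2:119351029-119351076, plus strand: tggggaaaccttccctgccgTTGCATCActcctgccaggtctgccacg
Vldlr, chr19:27216800-27216847, plus strand: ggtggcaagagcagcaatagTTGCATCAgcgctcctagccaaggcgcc
Of the 6 genes with the core, 4 were tested, and of these 0 rose, 1 fell (Vldlr) and 3 did not pass.

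Aldh18a1, which starts proline synthesis from glutamate, had the largest averaged rise of the members. It read 8.01 and 8.18 in KO ascending aorta, against 7.41 and 7.30 in WT ascending aorta. It read 8.26 and 8.05 in KO descending aorta, against 7.28 and 7.39 in WT descending aorta. Every KO array was far above every WT array, and the averaged rise was 1.72-fold (log2 0.78, SE 0.08, limma adjusted p = 0.00208). It also passed in the ascending (0.74, adjusted p = 0.0207) and descending aorta (0.82, adjusted p = 0.0188).

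Shmt2, the mitochondrial hydroxymethyltransferase that interconverts serine and glycine, read 7.87 and 8.02 in KO ascending aorta, against 7.41 and 7.37 in WT ascending aorta. It read 8.09 and 8.06 in KO descending aorta, against 7.21 and 7.54 in WT descending aorta. No arrays overlapped, and the averaged rise was 1.54-fold (log2 0.63, SE 0.09, limma adjusted p = 0.00596). Psat1, the aminotransferase of serine synthesis, read 6.71 and 6.95 in KO ascending aorta, against 6.22 and 6.32 in WT ascending aorta. It read 6.97 and 6.70 in KO descending aorta, against 6.48 and 6.52 in WT descending aorta. Its KO arrays were above its WT arrays, with a rise of 0.45 (SE 0.09, limma adjusted p = 0.0195).

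Phgdh, the enzyme just before Psat1 in serine synthesis, showed no such difference. It read 6.71 and 6.79 in KO ascending aorta, against 6.80 and 6.63 in WT ascending aorta, and 6.75 and 6.91 in KO descending aorta, against 6.76 and 6.97 in WT descending aorta. The groups overlapped in both segments (limma adjusted p = 0.997). Asns, asparagine synthetase and a standard marker of ATF4 activity, read 6.12 and 6.30 in KO ascending aorta, against 6.15 and 6.01 in WT ascending aorta. It read 6.19 and 6.23 in KO descending aorta, against 6.25 and 6.37 in WT descending aorta, lower in KO there. Its averaged difference was 0.01 with a 95% interval of -0.17 to 0.20. Mthfd2, a mitochondrial folate enzyme, read 6.38 and 6.63 in KO ascending aorta, against 6.52 and 6.69 in WT ascending aorta. It read 7.11 and 6.91 in KO descending aorta, against 6.90 and 6.62 in WT descending aorta. KO pools were thus lower on average in the ascending and higher in the descending aorta, and neither difference passed (-0.10, limma adjusted p = 0.769, and 0.25, adjusted p = 0.397).

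The 3 members of ER-associated degradation, which draws misfolded protein back to the proteasome, did not pass. Herpud1, a membrane organiser of that machinery, carries in its promoter window the second form of the ER stress response element, ATTGG and CCACG with 1 base between them. This form was found in 1 member and in 0.037% of all genes, and capitals mark it here.
Herpud1, chr8:94386357-94386407, plus strand: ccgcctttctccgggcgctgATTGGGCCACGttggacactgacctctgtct
It read 7.94 and 8.06 in KO ascending aorta, against 7.72 and 7.85 in WT ascending aorta. It read 8.09 and 8.07 in KO descending aorta, against 7.93 and 7.78 in WT descending aorta. Its KO arrays were higher without overlap, with an averaged difference of 0.22 (limma adjusted p = 0.0998). Edem1, a lectin that picks out misfolded glycoproteins, read 7.49 and 7.46 in KO ascending aorta, against 7.52 and 7.16 in WT ascending aorta. It read 7.41 and 7.54 in KO descending aorta, against 7.04 and 6.99 in WT descending aorta. Edem1 overlapped in the ascending and not in the descending aorta, with an averaged difference of 0.30 (limma adjusted p = 0.0805). In the averaged comparison Edem1 did pass when its probe sets were averaged. Sel1l, the scaffold of the HRD1 ligase, was below WT without overlap in both segments, with an averaged difference of -0.17 (adjusted p = 0.192).

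Of the 4 transporters and other ATF4 targets tested, 0 rose and 1 fell in the averaged comparison, beside 6.21% and 5.22% of all genes. Vldlr, the very low density lipoprotein receptor, whose gene is known from cell studies as a target of ATF4, read 7.43 and 7.53 in KO ascending aorta, against 8.41 and 8.28 in WT ascending aorta. It read 6.96 and 7.10 in KO descending aorta, against 7.97 and 7.79 in WT descending aorta. All KO arrays were below all WT arrays. Vldlr fell by 0.86 (SE 0.08, limma adjusted p = 0.00126), which is 1.81-fold, and its fall was 0.86 in the ascending (adjusted p = 0.0122) and 0.85 in the descending aorta (adjusted p = 0.0143). Vldlr is also expressed by endothelium, muscle and fat. In the averaged comparison some markers of endothelium and fat fell (values below), while 0 of 8 smooth, 0 of 8 heart and 0 of 8 skeletal muscle markers passed. The part of these cells in the fall of Vldlr was not tested.

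Slc7a5, the light chain of the LAT1 carrier of large amino acids, read 7.66 and 8.14 in KO ascending aorta, against 7.57 and 7.34 in WT ascending aorta. It read 7.95 and 7.71 in KO descending aorta, against 7.94 and 7.78 in WT descending aorta. The KO ascending pools lay far apart, the descending groups overlapped, and the averaged difference of 0.21 did not pass (limma adjusted p = 0.32). Slc3a2, the heavy chain that partners Slc7a5, read 8.76 and 8.76 in KO ascending aorta, against 8.71 and 8.73 in WT ascending aorta. It read 8.83 and 8.82 in KO descending aorta, against 8.68 and 8.65 in WT descending aorta, with an averaged difference of 0.10 (limma adjusted p = 0.388). The arrays of Slc3a2 were tight in every group and KO was slightly higher. Sesn2, a leucine sensor that restrains mTORC1, differed by 0.08 (adjusted p = 0.752). Slc7a11, the cystine carrier, was near the lower end of the arrays, at 4.08 and 3.93 in KO ascending aorta, against 4.17 and 3.58 in WT ascending aorta, and was not tested.

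Among the 9 heat shock proteins and partners, 3 rose (33.3%) and 0 fell in the averaged comparison, with a median of 0.15. Over all genes 6.21% rose and 5.22% fell. The heat shock element searched for, GAA, TTC and GAA with 2 bases between neighbours, on both strands, was in the windows of 2 members (5.26%) and of 0.514% of all genes. Both belong to 1 neighbouring pair, Hspd1 and Hspe1, the mitochondrial chaperonin and its lid, which are transcribed away from each other from a shared stretch. Both were chosen as heat shock genes, so this excess is not a separate result either. The stretch is shown from the Hspe1 side, with capitals marking the element; a second match overlaps it on the other strand.
Hspe1, chr1:55088044-55088096, plus strand: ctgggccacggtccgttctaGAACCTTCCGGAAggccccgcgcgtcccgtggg
Neither gene passed. Hspd1 differed by 0.07 on average (limma adjusted p = 0.622) and Hspe1 by 0.05 (adjusted p = 0.754), and both were above WT on average in the ascending and below WT in the descending aorta.

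Hsph1 encodes HSP105, a cytosolic chaperone that exchanges the nucleotide of HSP70. It read 8.39 and 8.54 in KO ascending aorta, against 7.74 and 8.02 in WT ascending aorta. It read 8.62 and 8.66 in KO descending aorta, against 7.94 and 7.84 in WT descending aorta. KO arrays were above WT arrays throughout, and the averaged rise was 1.59-fold (log2 0.67, SE 0.09, limma adjusted p = 0.0045). It passed in the ascending (0.58, adjusted p = 0.0482) and in the descending aorta (0.75, adjusted p = 0.029).

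Hspa1a, the inducible HSP70, was high in the ascending KO aorta. It read 7.30 and 7.24 on KO ascending arrays, against 6.26 and 6.49 on WT ascending arrays. It read 6.88 and 6.86 on KO descending arrays, against 7.05 and 6.76 on WT descending arrays, where the KO values lay between the WT values. The rise was 0.89 (SE 0.13, limma adjusted p = 0.0159) in the ascending aorta, against -0.03 (adjusted p = 0.925) in the descending aorta. Both the high KO ascending arrays and the low WT ascending arrays entered this difference. Hspa1b, its near-identical neighbour, may share signal with it. Hspa1b read 7.02 and 7.07 in KO ascending aorta, against 6.81 and 6.51 in WT ascending aorta, and 6.98 and 7.04 in KO descending aorta, against 7.10 and 6.76 in WT descending aorta. Its differences of 0.39 and 0.08 did not pass (adjusted p = 0.192 and 0.828). A probe set annotated to both genes differed by 0.25 in the ascending and -0.08 in the descending aorta and was not tested.

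Bag3, an HSP70 partner in the autophagy of damaged contractile proteins, read 9.01 and 9.04 in KO ascending aorta, against 8.66 and 8.70 in WT ascending aorta. It read 8.99 and 8.94 in KO descending aorta, against 8.80 and 8.58 in WT descending aorta. Its KO arrays were above its WT arrays, and it rose by 0.31 (SE 0.08, limma adjusted p = 0.037). Hsp90aa1, the inducible cytosolic HSP90, read 8.02 and 7.98 in KO ascending aorta, against 7.86 and 7.81 in WT ascending aorta. It read 7.98 and 7.86 in KO descending aorta, against 7.94 and 7.79 in WT descending aorta, and its averaged difference of 0.11 did not pass. Dnajb1, an HSP40 partner of HSP70, read 7.12 and 6.78 in KO ascending aorta, against 6.55 and 6.77 in WT ascending aorta. It read 6.80 and 6.71 in KO descending aorta, against 6.72 and 6.76 in WT descending aorta, with an averaged difference of 0.15. Hsp90aa1 and Dnajb1 overlapped in the descending aorta.

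Hspa8, the constitutive HSP70 relative that is not a stress-induced gene, served as a contrast. It read 12.65 and 12.64 in KO ascending aorta, against 12.64 and 12.70 in WT ascending aorta. It read 12.67 and 12.64 in KO descending aorta, against 12.75 and 12.73 in WT descending aorta. The ascending groups overlapped, the descending KO arrays were slightly below the WT arrays, and the averaged difference was -0.06 (95% interval -0.21 to 0.10, limma adjusted p = 0.641).

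**Figure D3:**
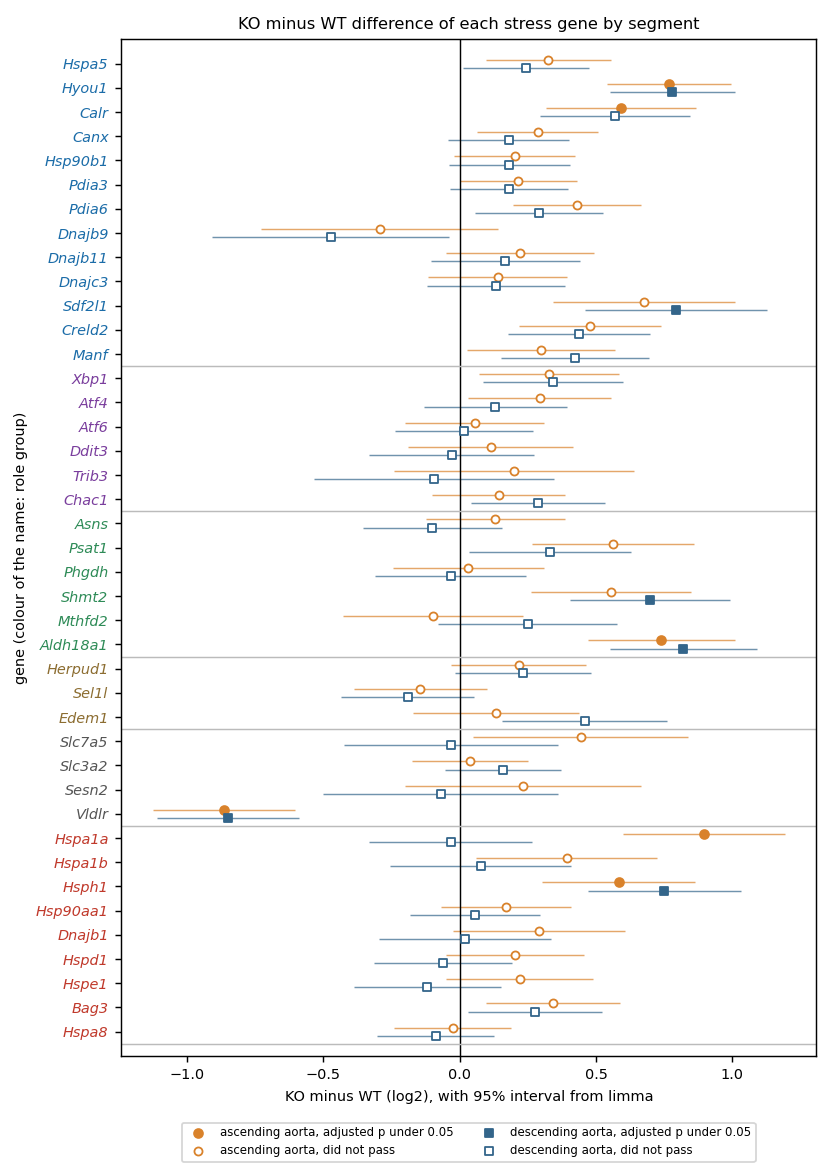
KO minus WT log2 difference of each tested stress gene in the ascending aorta (orange circles) and the descending aorta (blue squares), with 95% intervals from limma; filled symbols passed an adjusted p of 0.05, and name colours and lines mark role groups. Hyou1 and Aldh18a1 differ by 0.74 to 0.82 in both segments, Vldlr by -0.86 and -0.85, and Hspa1a by 0.89 in the ascending and -0.03 in the descending aorta.

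The segments were compared for the size of the genotype difference. The difference was above 0 in both segments for 27 members (65.9%) and below 0 in both for 4 (9.76%), beside 34.4% and 33.3% of all genes, and the other 10 had opposite signs. In the direct test of ascending against descending difference, limma called 0 members and 0% of all genes. A single member, Hspa1a, had an unadjusted p under 0.05 in that test, as did 5.6% of all genes. Its difference between segments was 0.93 (95% interval 0.51 to 1.35, adjusted p = 0.647). Over the alternatives run for it this difference was 0.78 to 1.08. For heat shock proteins, KO was above WT without overlap for 8 of 9 genes in the ascending aorta and for 2 of 9 in the descending aorta, beside 25.6% of all genes in each. That contrast between segments was not tested as a group.

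The segments were also compared within each genotype. Between ascending and descending aorta 0 of 41 members passed in KO pups and 0 in WT pups, beside 1.48% of all genes in each genotype. An unadjusted p under 0.05 was seen for 3 members in KO and 6 in WT pups, beside 12.1% and 12.3% of all genes. The median ascending minus descending difference was -0.01 in KO and -0.07 in WT pups. Vldlr differed by 0.45 in KO (limma adjusted p = 0.122) and by 0.46 in WT pups (adjusted p = 0.113). Hspa1a differed by 0.40 in KO (adjusted p = 0.244) and by -0.53 in WT pups (adjusted p = 0.112). Mthfd2 differed by -0.50 in KO pups (adjusted p = 0.172).

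Other genes of these pathways were read from 5 further lists. Of 53 other ER folding and glycosylation genes 13 rose and 0 fell in the averaged comparison (24.5%, median 0.15), beside the 6.21% of all genes that rose. Fkbp14, a prolyl isomerase that acts on collagen, read 7.67 and 7.85 in KO ascending aorta, against 6.97 and 6.78 in WT ascending aorta. It read 8.04 and 7.53 in KO descending aorta, against 7.12 and 7.03 in WT descending aorta, and rose by 0.80 (SE 0.12, limma adjusted p = 0.0066). Txndc5, a disulphide isomerase (0.52, adjusted p = 0.00514), Uggt1, the glucosyltransferase that sends unfolded glycoproteins back to calreticulin (0.48, adjusted p = 0.00727), and the isomerase Fkbp11 (0.58, adjusted p = 0.00989) rose too. Ppib, a collagen chaperone and the brightest gene of that list, differed by -0.20 and did not pass (adjusted p = 0.143).

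Of 28 other ER stress sensors and regulators 6 rose (21.4%) and 1 fell (3.57%), beside 6.21% and 5.22% of all genes. Nupr1, a stress-induced nuclear protein, rose by 0.69 (limma adjusted p = 0.00476), with 10.01 and 9.97 in KO ascending aorta, against 9.43 and 9.28 in WT ascending aorta. In the descending aorta Nupr1 read 9.88 and 9.63 in KO pools, against 8.88 and 9.12 in WT pools. Atf3, a stress-induced transcription factor, rose by 0.72 (adjusted p = 0.0145), Creb3l2, an ER-bound factor that raises secretory genes, by 0.41 (adjusted p = 0.0154) and Bak1, a pore-forming protein of apoptosis, by 0.32 (adjusted p = 0.0352). The gene that fell was Map3k5, a kinase of stress signalling, by 0.30 (adjusted p = 0.0495; named after its value was seen). Of 24 other degradation genes 0 rose and 1 fell, with a median of -0.01. That gene was Erlec1, an ER lectin, which fell by 0.48 (adjusted p = 0.00852). Ngly1 (-0.32), Man1b1 (0.28), Edem3 (0.22) and the bright Vcp (-0.01) did not pass.

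Of 37 other amino acid response genes 9 rose (24.3%) and 2 fell (5.41%), with a median of 0.18, beside 6.21% and 5.22% of all genes. Slc7a1, a carrier of arginine and lysine, rose by 0.56 (limma adjusted p = 0.00771), Xpot, an exporter of transfer RNA, by 0.47 (adjusted p = 0.00788), and Aldh1l2, a mitochondrial folate enzyme, by 0.54 (adjusted p = 0.0125). Those that fell were Stc2, a secreted glycoprotein, by 0.52 (adjusted p = 0.0448) and Cth, an enzyme of cysteine synthesis, by 0.44 (adjusted p = 0.0212), both named after their values were seen. Slc38a2, a bright carrier of neutral amino acids, differed by 0.18 (adjusted p = 0.152). Of 51 other heat shock and cytosolic chaperone genes 8 rose (15.7%) and 0 fell, with a median of 0.06. The HSP90 partners Chordc1 (0.46, adjusted p = 0.00714), Stip1 (0.45, adjusted p = 0.00989) and Fkbp4 (0.36, adjusted p = 0.0182), and the muscle small heat shock protein Hspb7 (0.47, adjusted p = 0.00819), were among them. Cryab, the brightest gene of the list, differed by 0.11 and did not pass. The lists share 5 genes, Atf3 among them, and counted once 33 of their genes rose and 4 fell.

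**Figure D4:**
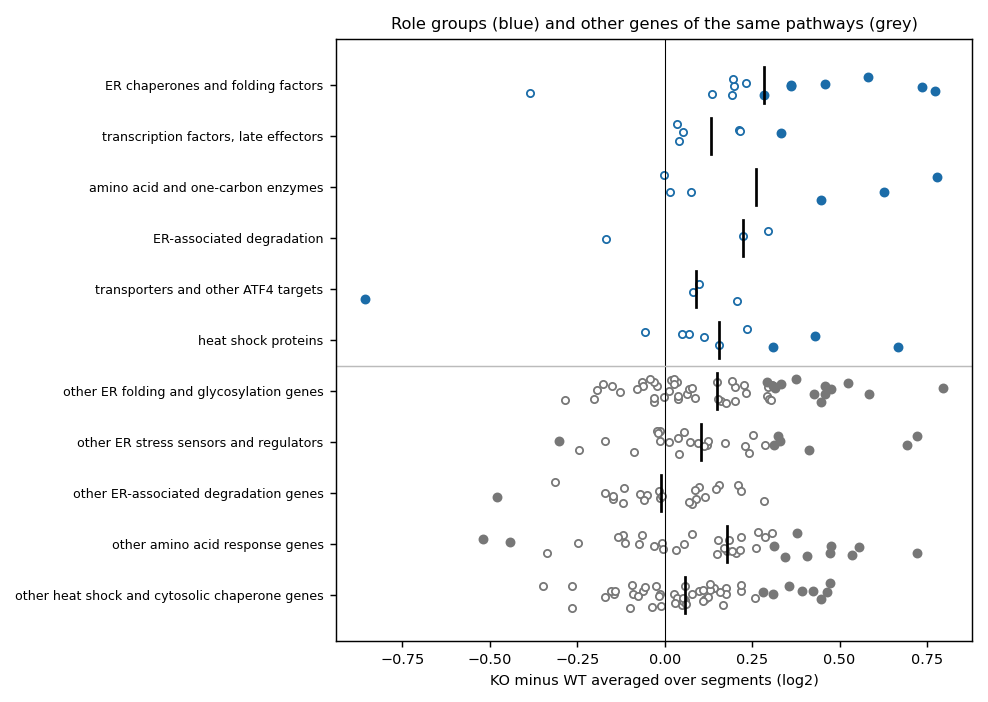
KO minus WT difference averaged over segments (log2) for the role groups of the stress genes (blue) and for other genes of the same pathways (grey); each point is a gene, filled points passed an adjusted p of 0.05, and black bars are medians. The median is 0.28 for the ER chaperones and folding factors, 0.15 for the other ER folding genes and -0.01 for the other degradation genes.

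Markers of other cell types differed between the same arrays. For scale, 6.21% of all genes rose and 5.22% fell in the averaged comparison. In the ascending aorta 1.54% of all genes rose, and in the descending aorta 1.46%. Neutrophil markers rose in the averaged comparison for 9 of 12 genes, with mean signals of 6.96 and 6.96 in KO ascending aorta, against 5.80 and 5.30 in WT ascending aorta. In the descending aorta they averaged 6.32 and 6.79 in KO, against 5.76 and 6.04 in WT. Platelet markers rose for 4 of 6 genes in the ascending aorta, with means of 7.99 and 7.78 in KO, against 7.07 and 7.16 in WT, and for 0 of 6 in the descending aorta. Macrophage markers rose for 4 of 8 genes, endothelial markers fell for 6 of 10, fat markers for 5 of 8 and lung epithelial markers for 3 of 9 in the averaged comparison. Of 7 fibroblast and adventitia markers 3 fell and 1 rose, with means of 10.24 and 10.31 in KO ascending aorta, against 10.52 and 10.51 in WT ascending aorta. Their means were 10.3 and 10.28 in KO descending aorta, against 10.5 and 10.45 in WT descending aorta. Of the plasma cell markers 0 of 3 passed in this comparison.

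Liver markers rose for 7 of 12 genes in the averaged comparison (58.3%), beside 6.21% of all genes. Their mean was 6.41 and 6.35 in KO ascending aorta, against 6.02 and 5.96 in WT ascending aorta. It was 6.70 and 7.82 in KO descending aorta, against 5.73 and 5.41 in WT descending aorta. The liver mean differed by 0.39 in the ascending and by 1.69 in the descending aorta, and the mean of the 13 ER chaperones by 0.33 and 0.30. The neutrophil mean differed by 1.41 in the ascending and 0.65 in the descending aorta, and the mean of the 9 heat shock proteins by 0.34 and 0.10. The endothelial mean differed by -0.37 and -0.35 and the fat mean by -0.75 in each segment, beside the fall of Vldlr. The part of these cells in the differences of the stress genes was not tested.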

How the data were processed

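Total RNA of pooled newborn aortas (8 pups per array, 2 arrays for each of 4 groups) was amplified with NuGEN Ovation Pico WTA and labelled with Encore Biotin, per the labels' protocols. The authors deposited log2 values made with RMA in Affymetrix Expression Console, per the submitters' processing notes, with versions not given in the sources used here. Array medians were 5.11 to 5.19. Of 41345 probe sets, those with 1 gene symbol were kept, and per gene the brightest. Genes whose mean lay under the 25th percentile of all means (4.11 log2) were dropped as dim, leaving 16635.

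All 8 arrays were fitted in limma 3.58.1 (R 4.3.3) with a mean per group, and spread was moderated by eBayes (residual df 4, prior df 4.51). Adjusted p is Benjamini-Hochberg over all genes tested, with a threshold of 0.05, for 6 comparisons. RNA levels are relative to each pool's total. The method was run on simulated data with independent noise and with changes placed in the KO ascending group only. That simulation did not cover differences between litters or in tissue make-up, nor changes in the averaged comparison. Promoter windows came from RefSeq (GRCm38.p6). Same-numbered replicates were treated as unpaired: no label ties the numbers to a litter or day, and deviations of same-numbered arrays correlated only by -0.10 to 0.13.

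The members, the lists and the rule were chosen with earlier results of these data known. The rule named each called member, a set of standard markers, up to 2 uncalled members per role by smallest p, and up to 4 genes per further list. Hsp90b1, Dnajb11, Dnajc3, Dnajb9, Sel1l, Sesn2, Hspd1, Hspe1 and Slc7a11 were named outside it after their values were seen. Figures were drawn with matplotlib 3.10.9.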

Additional observations from a re-analysis of the deposited data

Results flagged for a closer look

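A probe set annotated to both Pdia4, a disulphide isomerase of the ER, and Mir704 lay outside the comparisons because it has several symbols. It read 7.83 and 7.77 in KO ascending aorta, against 7.47 and 7.46 in WT ascending aorta. It read 8.01 and 7.81 in KO descending aorta, against 7.41 and 7.70 in WT descending aorta. KO was above WT without overlap in both segments, by 0.34 on average, and the difference was not tested. A second probe set of Edem1, dimmer than the one used, read 7.36 and 7.45 in KO ascending aorta, against 7.19 and 6.83 in WT ascending aorta. It read 7.46 and 7.14 in KO descending aorta, against 6.95 and 6.57 in WT descending aorta, with an averaged difference of 0.47 that was not tested. These were 2 of 8 unused or shared probe sets of the stress genes that were looked at. They were picked because KO lay above WT without overlap in both segments. Of all genes tested, each on its brightest probe set, 12.8% met that criterion, so the 2 add no separate support.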

How the results depend on the processing

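With 2 pools per group the counts of called stress genes depended on the settings. No KO against WT difference that passed in a comparison changed sign in that comparison, in any setting run. Those differences were picked as far from 0 on the same arrays, so a kept sign adds little. Among named genes that did not pass, some signs changed, for Phgdh in 6 and for Asns in 3 of 15 settings of the averaged comparison. In the ascending aorta 6 members passed, against 11 with a stricter dim filter (50th percentile), 14 with a robust, trended prior, 1 with only the arrays compared, and 0 to 4 with a single array left out. In the descending aorta 6 passed, against 3 with only the arrays compared and 0 to 5 with an array left out. In the averaged comparison 15 passed, against 8 to 11 with an array left out and 13 to 20 under the other settings. Some named members that did not pass in the averaged comparison passed in other settings. Edem1, Canx, Pdia3 and Atf4 passed with the trended robust prior, and Edem1 and Canx also with the stricter filter. Where an array was left out, its partner was taken to have the same spread as the remaining groups. The interaction and the segment comparison in KO called 0 members in every setting, and the segment comparison in WT called 2 with the trended robust prior. Over all genes the ascending count was 455, with 303 for no filter, 756 for the stricter filter, 1014 for the trended prior, 100 for only the arrays compared and 64 to 353 with an array left out. The descending count was 380, with 155, 717, 922 and 105 in the same settings, 20 to 226 with an array left out and 200 with the replicate block. The averaged count was 1902, with 782 to 1317 with an array left out. The segment counts were 247 in each genotype, with 430 in KO and 444 in WT for the trended prior, 114 in KO for only the arrays compared, and 54 to 191 in KO and 63 to 228 in WT with an array left out. The interaction called 0 genes, 1 with the trended prior and up to 11 with an array left out. With the replicate number as a block, 4 members passed in the ascending, 4 in the descending and 14 in the averaged comparison, and 0 in the interaction or between segments; the numbers share only a label. The cause of these shifts was not tested, apart from the fewer arrays or genes that some settings use.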

Other observations

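Pools of 1 group stood apart for a few stress genes. Sesn2 read 4.86 and 5.47 in KO descending aorta, against 5.23 and 5.24 in WT descending aorta. Dnajb9 read 8.48 and 8.0 in KO descending aorta, and Slc7a5 read 7.66 and 8.14 in KO ascending aorta. Hspa8, read on several further probe sets, was lower in KO on each of those annotated to it alone in the descending aorta (-0.28, -0.16 and -0.10), while a probe set it shares with Snord14e was higher (0.12).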
